A study of Mus musculus with 20 samples.

Results

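The genes described here are 33 B cell identity genes of the mouse, among 24062 genes listed for each lung library. They were chosen by symbol, as genes for the B cell antigen receptor and its signalling (7 genes), for coreceptors and other surface receptors (12), for transcription factors (6), for homing, survival and lipid receptors (3) and for other products of the B lineage (5). All 33 symbols were present and all 33 had enough reads to be tested. The study measured RNA from whole lungs of mice of a mixed C57/129 background, of both sexes and 8 to 10 weeks old at exposure. The labels used here do not give the sex of each sample, and sex was not a term in the fits. The mice were Arg2+/+ (wild type) or Arg2-/- (knockout), where Arg2 encodes the mitochondrial arginase that turns arginine into ornithine and urea, and no cell type is named to which the loss would be limited. They spent 28 days in room air at 21% oxygen or in hypoxia at 10% oxygen, a common mouse model of pulmonary hypertension. Each of the 4 groups (wild type room air, wild type hypoxia, knockout room air, knockout hypoxia) had 4 samples. Lungs were rinsed and snap-frozen; no source used here says whether the vessels were perfused to remove blood.

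B cells sense antigen through a surface immunoglobulin that signals through the paired chains CD79A and CD79B. Kinases and adaptors such as BLK, BTK and BLNK pass the signal on, and coreceptors such as CD22, CD72 and the complement receptor CR2 lower or raise it. The transcription factors EBF1 and PAX5 install and hold B cell identity, and the octamer binding protein OCT2 (Pou2f2), its coactivator OCA-B (Pou2af1) and the ETS factor SPIB act in mature B cells. In the lung, B cells are found in the blood, in the tissue between the airspaces and, after long irritation, in lymphoid clusters that form around the chemokine CXCL13, the ligand of CXCR5.

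Because many of these genes moved together, the 250 bases before the listed start of each gene were searched on both strands for the motifs of 3 B lineage factors. RefSeq promoters on GRCm38.p6 were found for 26 of the 33 genes, all but Cd79b, Blk, Stap1, Ms4a1, Cxcr5, Ly6d and Serpina9. The octamer ATGCAAAT (ATTTGCAT on the other strand), bound by OCT2, was present in 3 of 26 members (11.5%: Blnk, Cnr2 and Vpreb3), against 1.81% of 27025 genes. The ETS sequence GAGGAAGT (ACTTCCTC), bound by PU.1 and SPIB, was present in 4 of 26 (15.4%: Btla, Cd37, Cd72 and Fcrl1), against 2.79%. The EBF palindrome, TCCC and GGGA with any 2 bases between, was present in 1 of 26 (3.85%: Cd22), against 0.914%. No member held 2 of these motifs. A match is a description of the letters, not a shown binding site, and a window without one says nothing about the factor. Below are 3 windows with a match that lie outside annotated exons, chosen because the calls for their genes differed: Fcrl1 and Cnr2 were called lower in hypoxia in both genotypes and Vpreb3 in neither. The Fcrl1 call in wild type was lost in 16 of 27 alternative settings and that of Cnr2 in 1, and Vpreb3 was called in the knockout (-1.18 ± 0.29, adjusted p = 0.0293) in the setting that left out 5 samples carrying genes of other organs. Capitals mark the motif, 15 bases before the start in Fcrl1 (chr3:87376137-87376386, plus strand), 48 bases before in Cnr2 (chr4:135894939-135895188, plus strand) and 45 bases before in Vpreb3 (chr10:75948050-75948299, plus strand; inside the span of the GENCODE gene, between its exons).

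Fcrl1: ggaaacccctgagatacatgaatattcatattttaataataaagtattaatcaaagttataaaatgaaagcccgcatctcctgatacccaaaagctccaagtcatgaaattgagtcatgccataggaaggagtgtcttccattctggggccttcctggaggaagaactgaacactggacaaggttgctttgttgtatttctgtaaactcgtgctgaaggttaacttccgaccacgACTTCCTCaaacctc
Cnr2: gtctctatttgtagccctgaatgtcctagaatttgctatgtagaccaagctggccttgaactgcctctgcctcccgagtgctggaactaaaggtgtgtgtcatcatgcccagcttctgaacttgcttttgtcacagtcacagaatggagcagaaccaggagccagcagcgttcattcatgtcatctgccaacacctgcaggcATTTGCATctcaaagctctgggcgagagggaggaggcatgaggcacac
Vpreb3: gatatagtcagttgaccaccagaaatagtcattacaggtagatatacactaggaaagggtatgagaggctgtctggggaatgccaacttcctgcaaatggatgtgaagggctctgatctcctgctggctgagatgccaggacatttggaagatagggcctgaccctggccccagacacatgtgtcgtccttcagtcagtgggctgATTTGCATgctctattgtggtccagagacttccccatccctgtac

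The shallowest sample was wild type room air 3, with 9531270 reads assigned to genes, and the deepest was knockout room air 3, with 63331530. In wild type room air 3, genes took 25.4% of the reads that fell inside or outside genes, the lowest share of the 16 samples, against 35.5% to 64.2% in the others. Levels are in CPM, a gene's reads scaled to library size. For counting error only, an unread gene could still have had a level of 0.0474 CPM in the deepest sample and 0.315 CPM in the shallowest; every member had reads in every sample. Arg2 itself was at 8.47, 9.14, 11.8 and 7.3 CPM in wild type room air and 6.33, 11.7, 10.1 and 9.13 in wild type hypoxia, against 4.58, 5.25, 4.88 and 7.78 in knockout room air and 4.57, 3.22, 5.37 and 3.97 in knockout hypoxia. Knockout lungs thus kept Arg2 reads over the gene as a whole, and knockout room air 4 lay above the lowest wild type room air sample. The difference was -0.70 ± 0.21 (adjusted p = 0.0842) in room air and -1.13 ± 0.22 (adjusted p = 0.00191) in hypoxia as log2 fold change ± SE in edgeR. Genes of lung epithelium and endothelium summed to 30990 to 40730 CPM, so every sample carried the markers of its labelled tissue. Wild type hypoxia 4 stood apart from its group (chi-square per degree of freedom 135 to 143 against 4.78 to 7.95 among the other 3): Rn45s, a ribosomal RNA precursor, was at 249615 CPM there and at 4993 to 13061 in the other 15 samples. Without it, 7 members in place of 15 were called lower for hypoxia in wild type and 27, as with it, for knockout against wild type in hypoxia. Over all genes, 396 in place of 364 and 1432 in place of 1900 were called lower in these comparisons. Genes of other organs stood out in some samples: skeletal and heart muscle in wild type room air 1 (1273 summed CPM) and knockout room air 3 (664), pancreas in knockout hypoxia 1 (1307) and 2 (100), and thymocyte genes in knockout room air 3 (135) and 4 (119).

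Summed over the 33 members, B cell identity RNA was highest in wild type lungs in room air and lowest in knockout lungs in hypoxia. The sums were 597, 687, 362 and 574 CPM in wild type room air, 472, 457, 333 and 390 in knockout room air, 403, 315, 354 and 284 in wild type hypoxia and 202, 230, 164 and 164 in knockout hypoxia. The knockout hypoxia samples lay below all 12 others, while the other 3 groups overlapped. The mean was lowest in knockout hypoxia for 33 of 33 members and highest in wild type room air for 32, the exception being Serpina9. The order of means was wild type room air, knockout room air, wild type hypoxia, knockout hypoxia in 28 members, and wild type hypoxia stood above knockout room air in 4 (Btk, Cd22, Fcer2a and Cd180). Neighbours in this order often overlapped, as the values below show. Samples also moved as a whole within a group: wild type room air 3 was the lowest of its group for 31 of 33 members, wild type room air 2 the highest for 26, and knockout hypoxia 2 the highest for 27. In wild type hypoxia, sample 1 was the highest for 24 and sample 4 the lowest for 18. In bulk lung RNA, fewer B cells and less RNA per B cell cannot be told apart.

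**Figure D1:**
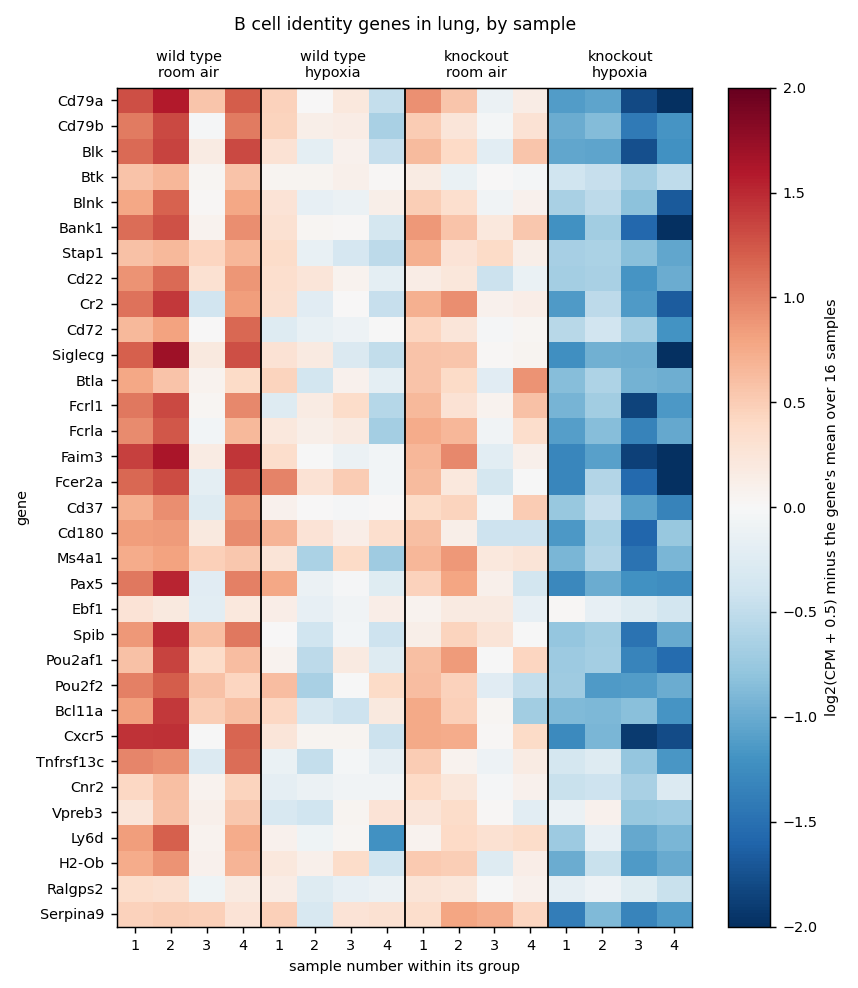
Heat map of the 33 B cell identity genes (vertical axis) in the 16 lung samples (horizontal axis, sample number within each of the 4 groups), coloured by log2(CPM + 0.5) minus the gene's mean over the 16 samples. The 4 knockout hypoxia samples are lowest for most genes, wild type room air 3 is paler than the rest of its group, and Ebf1 and Ralgps2 vary little.

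Per kilobase of exon, the members spanned a wide range of levels. In wild type room air the highest were Cd79b at 33.2 RPKM (group mean CPM divided by GENCODE exon length in kilobases), Ly6d at 22.1 and Cd79a at 10.8, and the lowest were Pax5 at 0.659, Pou2f2 at 0.496 and Bcl11a at 0.393 RPKM. In knockout hypoxia Cd79b was at 7.89, Ly6d at 7.74 and Cd79a at 1.38 RPKM, so that Ly6d came to stand beside Cd79b. Ebf1, at 2.43 RPKM in wild type room air, was still at 1.94 in knockout hypoxia. On GRCm38 (GENCODE vM21), Cd79a lies on chromosome 7 from 24897381 to 24902197 (plus strand), Cd79b lies on chromosome 11 from 106311341 to 106314762 (minus strand), Ms4a1 lies on chromosome 19 from 11249675 to 11266241 (minus strand), Pax5 lies on chromosome 4 from 44524757 to 44710487 (minus strand) and Ebf1 lies on chromosome 11 from 44617317 to 45008091 (plus strand). Likewise, Spib lies on chromosome 7 from 44525993 to 44532071 (minus strand), Cxcr5 lies on chromosome 9 from 44511787 to 44561877 (minus strand) and Serpina9 lies on chromosome 12 from 103994743 to 104013755 (minus strand). For 9 of the 33 genes the exons overlap those of another gene, from 13 bases in Cd37 (with Tead2) to 1423 bases in Cd72 (with Tesk1), and since no source used here gives the strand setting of the counting, reads in these stretches cannot be assigned with certainty.

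Hypoxia against room air in wild type lungs asks how 28 days at 10% oxygen alone moved these genes. In wild type lungs 15 of 33 members were called lower (edgeR quasi-likelihood test, Benjamini-Hochberg adjusted p under 0.05 over 15766 genes) and 0 higher, where 2.31% of all genes tested were called lower and 2.67% higher. The 15 comprised receptor signalling genes (Cd79a, Blk, Btk, Stap1), surface receptors (Cd22, Cd72, Siglecg, Fcrl1, Faim3), the transcription factor genes Spib and Pou2af1, all 3 homing, survival and lipid receptors (Cxcr5, Tnfrsf13c, Cnr2) and Ly6d. All 33 estimates were below 0, at a median of -0.86 on the log2 scale (range -1.35 to -0.13) beside -0.01 over all genes. In 8 members every hypoxia sample lay below every room air sample, against 3.94% of all genes. The count was sensitive to single samples: leaving out wild type room air 1, 2, 3 or 4 gave 9, 4, 23 and 5 called members, and leaving out wild type hypoxia 2, 3 or 4 gave 7, 8 and 7. Over all genes, the same fits called 320, 256, 475 and 241 lower, then 280, 253 and 396, beside 364 with every sample. Blk and Spib were the members called in every alternative tried.

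The same exposure in Arg2 knockout lungs was followed by lower values across nearly the whole set. Here 31 of 33 members were called lower and 0 higher, where 9.1% of all genes were called lower and 7.93% higher. The exceptions were Ebf1 and Vpreb3. The median log2 fold change was -1.40 (range -2.21 to -0.26) beside 0.00 over all genes, and Faim3, Serpina9, Cd79a and Cxcr5 were each over 4-fold lower by estimate (4.63, 4.52, 4.51 and 4.45-fold). In 31 members the groups did not overlap, against 11.6% of all genes with every hypoxia sample lower. All 15 members called lower in wild type hypoxia were among the 31 called here. Knockout room air 3 and 4 carried thymocyte genes, and without them 29 members were called lower, where 871 of all 16095 genes tested were. Of the 31 calls, 27 held in every alternative tried, the others being Btk, Tnfrsf13c, Ly6d and Ralgps2.

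**Figure D2:**
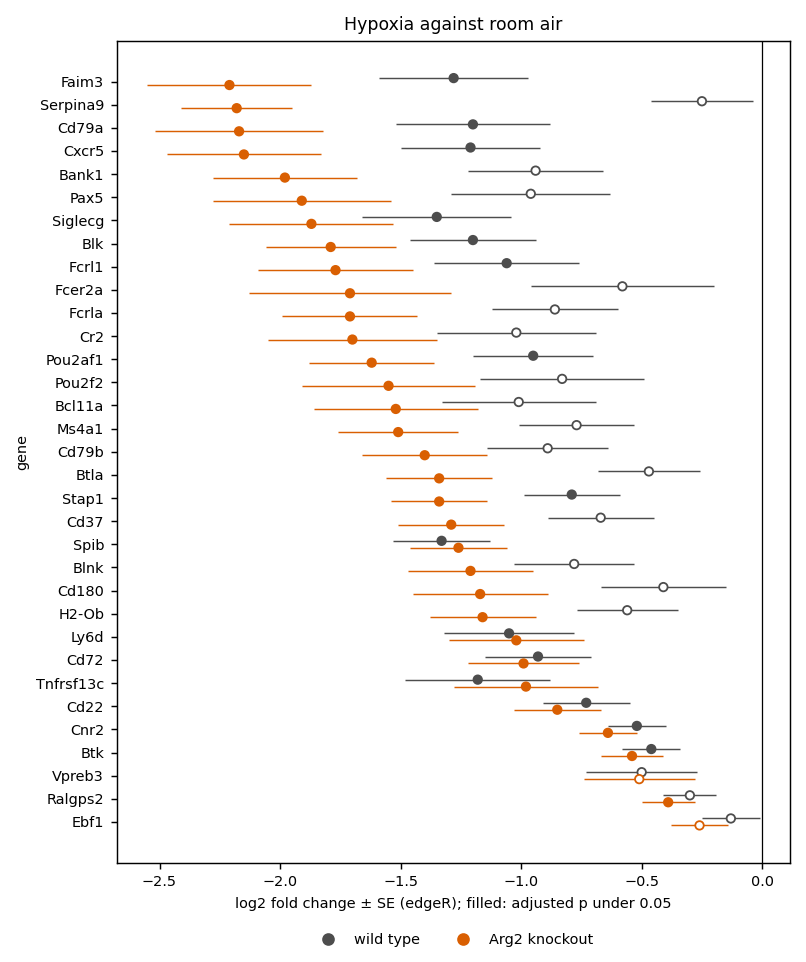
Log2 fold change of hypoxia against room air (horizontal axis, bars show SE, n = 4 samples per group) for each of the 33 genes (vertical axis), in wild type (grey) and Arg2 knockout lungs (orange); filled circles have an adjusted p under 0.05. All points lie left of 0, 15 grey and 31 orange circles are filled, and the orange point lies further left for 30 genes.

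The difference between the effects of hypoxia was tested by itself, as the knockout effect minus the wild type effect. Of the 33 members Serpina9 alone was called, at -1.92 ± 0.31 (adjusted p = 0.00802), so 1 of 33 members was called lower and 0 higher, where 0.222% of all genes were called lower and 0.279% higher. That call was lost without the 5 samples that carried genes of other organs (-1.99 ± 0.43, adjusted p = 0.0852). The estimates were negative in 30 members and positive in 3 (Spib, Tnfrsf13c and Ly6d), with a median of -0.59 beside 0.00 over all genes. The unadjusted p was under 0.05 for 6 of 33 members, beside 2225 of the 15766 genes tested. After Serpina9, Btla (-0.86 ± 0.30, adjusted p = 0.198) and Bank1 (-1.04 ± 0.40, adjusted p = 0.253) had the smallest p and did not pass. The least different were Vpreb3 (-0.00 ± 0.29, adjusted p = 0.999, 95% interval -0.56 to 0.56) and Ly6d (0.04 ± 0.39, adjusted p = 0.982, interval -0.72 to 0.80). For the other 32 members, being called in one genotype and not in the other is therefore not shown to be a difference between genotypes.

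Knockout against wild type lungs in room air asks what loss of Arg2 does without hypoxia. No member was called: 0 of 33 lower and 0 higher, where 0.019% of all genes were called lower and 0.0571% higher. The log2 estimates were below 0 in 32 members, at a median of -0.57 (range -0.95 to 0.17) beside -0.02 over all genes. The unadjusted p was under 0.05 for 17 of 33 members, beside 3408 of the 15766 genes tested. In 2 of 33 members, Cd22 and Spib, every knockout sample lay below every wild type sample. This share is near the 6.06% of all genes, and neither gene passed the adjusted threshold. DESeq2 called 7 members lower, beside 547 lower and 573 higher over all genes, and limma voom 11, beside 367 and 607. The comparison turned on wild type room air 3: without it 14 members were called lower, while the calls over all genes went from 3 lower and 9 higher to 904 lower and 1294 higher.

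In hypoxia the genotypes were far apart. Here 27 of 33 members were called lower in the knockout and 0 higher, where 12.1% of all genes were called lower and 11% higher. The members not called were Cd72, Tnfrsf13c, Ly6d, Vpreb3, Ebf1 and Ralgps2. The median log2 fold change was -1.01 (range -2.03 to -0.15) beside -0.01 over all genes, and the estimates were lowest in Fcer2a, Cd79a and Faim3 (4.08, 3.5 and 3.47-fold lower). In 27 members every knockout sample lay below every wild type sample, against 12.1% of all genes. This comparison shares its knockout hypoxia samples with the hypoxia comparison in the knockout, so their lists of called members are not independent. Of the 27 calls, 21 held in every alternative tried. Without knockout hypoxia 4, Stap1, Cr2, Ms4a1, Pou2af1 and Bcl11a were no longer called, and the Cnr2 call was lost in other alternatives.

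**Figure D3:**
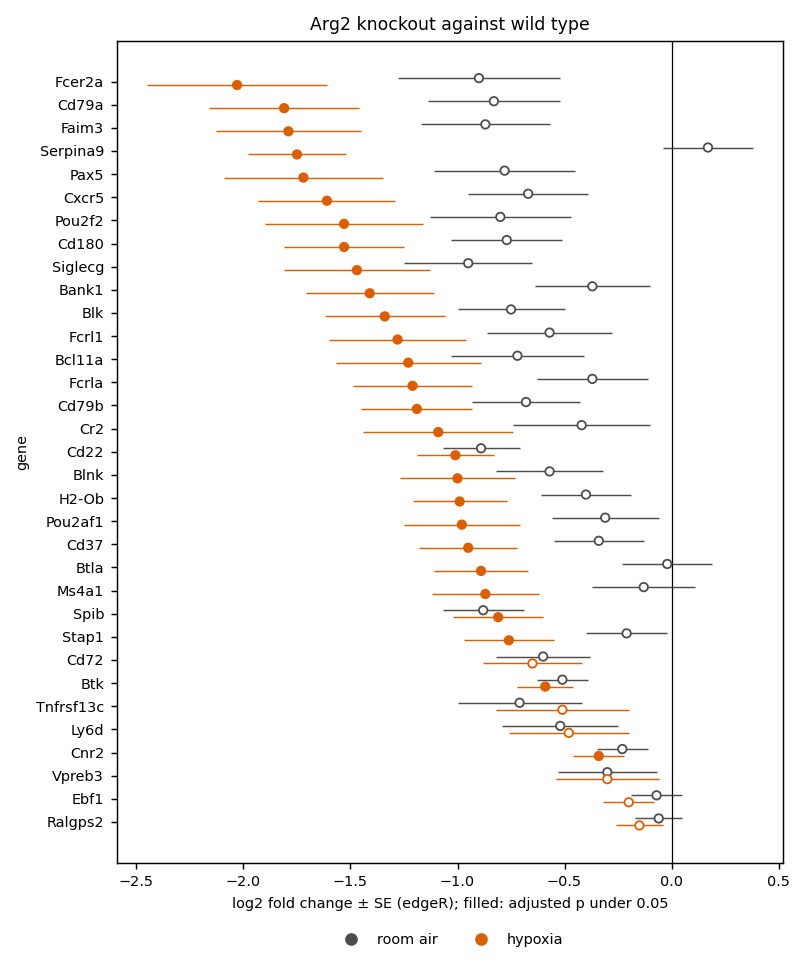
Log2 fold change of Arg2 knockout against wild type (horizontal axis, bars show SE, n = 4 samples per group) for each of the 33 genes (vertical axis), in room air (grey) and in hypoxia (orange); filled circles have an adjusted p under 0.05. In room air no circle is filled and Serpina9 alone lies right of 0; in hypoxia 27 are filled, the lowest being Fcer2a at -2.03.

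Among the receptor and signalling genes, all 7 were called lower in the knockout under hypoxia and 4 in wild type. Cd79a, a signalling chain of the B cell receptor, was at 16.8, 20.7, 9.89 and 15.8 CPM in wild type room air and 9.25, 6.59, 7.68 and 4.56 in wild type hypoxia. In the knockout it was at 12.8, 9.82, 5.98 and 7.33 in room air and 2.76, 2.88, 1.52 and 0.874 in hypoxia. Hypoxia and room air did not overlap in either genotype, and in room air the genotypes did. Cd79a fell in hypoxia in wild type, with a log2 fold change of -1.20 ± 0.32 (adjusted p = 0.0394), and in the knockout, -2.17 ± 0.35 (adjusted p = 0.000401), and it was lower in the knockout in hypoxia, -1.81 ± 0.35 (adjusted p = 0.00276). The room air difference between genotypes, -0.83 ± 0.31 (adjusted p = 0.143), did not pass. The call for hypoxia in wild type was lost in 9 of 27 alternatives, among them leaving out any single wild type sample but room air 3.

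Its partner chain Cd79b was at 51.3, 62.5, 24.4 and 51.5 CPM in wild type room air and 34.02, 26.9, 27.5 and 15.7 in wild type hypoxia. In the knockout the values were 35.6, 29.4, 24.03 and 30.4 in room air and 12.2, 13.4, 8.93 and 10.6 in hypoxia. Wild type room air 3 fell among the wild type hypoxia samples, while the knockout hypoxia samples lay below all others. In wild type the change of -0.89 ± 0.25 (adjusted p = 0.0559) missed the threshold. In the knockout Cd79b fell, at a log2 fold change of -1.40 ± 0.26 (adjusted p = 0.00164), and under hypoxia knockout lay below wild type, -1.19 ± 0.26 (adjusted p = 0.00573).

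Blk, a SRC family kinase of B cells, was at 13.7, 15.96, 6.77 and 15.8 CPM in wild type room air and 7.46, 5.17, 6.39 and 4.21 in wild type hypoxia. Its knockout values were 9.57, 8.02, 5.08 and 9.04 in room air and 2.67, 2.63, 1.41 and 2.29 in hypoxia. As with Cd79b, wild type room air 3 alone overlapped the wild type hypoxia samples. Blk fell in both genotypes, -1.20 ± 0.26 (adjusted p = 0.00859) in wild type and -1.79 ± 0.27 (adjusted p = 0.000177) in the knockout. Btk, the kinase mutated in human X-linked agammaglobulinaemia and also expressed in myeloid cells, had smaller estimates. It was at 16.3, 17.4, 11.1 and 16.2 CPM in wild type room air and 11.2, 11.2, 11.6 and 10.9 in wild type hypoxia, and in the knockout at 12.1, 9.77, 10.8 and 10.4 in room air and 8.03, 7.68, 6.55 and 7.42 in hypoxia. Its values in wild type hypoxia were close together. Btk fell in wild type (-0.46 ± 0.12, adjusted p = 0.0384), in the knockout (-0.54 ± 0.13, adjusted p = 0.00565) and in knockout against wild type hypoxia (-0.59 ± 0.13, adjusted p = 0.00369), and it had the third smallest p in room air (-0.51 ± 0.12, adjusted p = 0.0643), where it did not pass. The wild type call was lost in 17 of 27 alternatives, among them leaving out any single wild type sample but room air 3.

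Bank1, a scaffold protein of B cell receptor signalling, was at 30.6, 34.3, 14.6 and 26.8 CPM in wild type room air and 17.2, 14.3, 14.1 and 10.7 in wild type hypoxia. In the knockout it was at 25.7, 20.9, 16.3 and 20.4 in room air and 5.69, 8.44, 4.35 and 2.86 in hypoxia, the last 4 values below all 12 others. It fell in the knockout (-1.98 ± 0.30, adjusted p = 0.000247) and missed the threshold in wild type (-0.94 ± 0.28, adjusted p = 0.0674). Stap1, an adaptor downstream of TEC family kinases, was at 7.17, 7.53, 6.45 and 7.64 CPM in wild type room air and 6.11, 4.13, 3.57 and 3.07 in wild type hypoxia, and in the knockout at 7.898, 5.73, 6.19 and 5.08 in room air and 2.73, 2.798, 2.37 and 2.01 in hypoxia. Its hypoxia and room air samples did not overlap in either genotype, and wild type room air 3, at the foot of its group for most members, was close to the others here. Stap1 fell in wild type (-0.79 ± 0.20, adjusted p = 0.0239) and in the knockout (-1.34 ± 0.20, adjusted p = 0.000153). Blnk, the adaptor that links SYK to downstream enzymes and whose octamer lies in a window wholly inside exons of the GENCODE annotation, went from a mean of 10.6 ± 3.399 to 6.31 ± 0.988 CPM in wild type (SD, n = 4), which did not pass, and fell from 7.28 ± 1.34 to 3.18 ± 1.12 in the knockout.

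All 12 surface receptors were called lower in the knockout under hypoxia, 5 in wild type, and 11 in knockout against wild type hypoxia. Cd22, an inhibitory lectin that binds sialic acid, was at 40.6, 48.1, 26.9 and 40.1 CPM in wild type room air and 27.5, 25.8, 22.8 and 18.9 in wild type hypoxia. Knockout values were 24.1, 25.4, 15.9 and 19.7 in room air and 13.4, 13.6, 9.32 and 10.6 in hypoxia. Cd22 is the member with the smallest p in room air: every knockout sample lay below every wild type sample, at -0.89 ± 0.18 (adjusted p = 0.0541), which did not pass. It fell in wild type hypoxia (-0.73 ± 0.18, adjusted p = 0.02) and in knockout hypoxia (-0.85 ± 0.18, adjusted p = 0.00314), and it was lower in the knockout under hypoxia (-1.01 ± 0.18, adjusted p = 0.00146).

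Ms4a1, which encodes the surface protein CD20, overlapped between the genotypes in room air. It was at 29, 30.6, 24.3 and 25.3 CPM in wild type room air and 27.7, 31.96, 20.04 and 20.7 in knockout room air, a log2 fold change of -0.13 ± 0.24 (adjusted p = 0.809). In hypoxia it was at 20.7, 10.96, 22.7 and 10.4 in wild type and 8.88, 11.3, 5.88 and 8.86 in the knockout. Wild type hypoxia split into a higher pair (1 and 3) and a lower pair (2 and 4), the latter overlapping the knockout. Ms4a1 fell in the knockout (-1.51 ± 0.25, adjusted p = 0.000493) and was lower there than in wild type hypoxia (-0.87 ± 0.25, adjusted p = 0.0213), while in wild type the groups did not overlap but the change did not pass (-0.77 ± 0.24, adjusted p = 0.087). Btla, an inhibitory receptor that T cells share, was the member that differed least between genotypes in room air (-0.02 ± 0.21, adjusted p = 0.965). It was at 33.5, 29.2, 20.4 and 25.4 CPM in wild type room air, 29.02, 25.5, 16.6 and 36.8 in knockout room air and 26.6, 15, 20.7 and 16.97 in wild type hypoxia. In knockout hypoxia it was at 10.6, 12.6, 9.89 and 9.66, below every other sample, and it fell in hypoxia there (-1.34 ± 0.22, adjusted p = 0.000397).

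Cr2 and Fcer2a, the complement receptor CD21 and the low affinity IgE receptor CD23, distinguish marginal zone and follicular B cells in the spleen. Cr2 was at 18.2, 22.8, 6.24 and 15.2 CPM in wild type room air, 10.4, 7, 8.34 and 5.85 in wild type hypoxia, 13.9, 16.2, 8.78 and 9.08 in knockout room air and 3.49, 5.64, 3.502 and 2.27 in knockout hypoxia. Wild type room air 3 lay below 3 of the 4 wild type hypoxia samples, and the change in wild type did not pass (-1.02 ± 0.33, adjusted p = 0.0998). Cr2 fell in the knockout (-1.70 ± 0.35, adjusted p = 0.0031). Fcer2a was at 14.3, 15.9, 5.27 and 15.4 CPM in wild type room air, 12.7, 7.56, 8.88 and 5.88 in wild type hypoxia, 9.82, 7.17, 4.68 and 6.11 in knockout room air and 2.17, 3.92, 1.75 and 0.851 in knockout hypoxia. Wild type room air 3 again stood below its group, and wild type hypoxia was not called against room air (-0.58 ± 0.38, adjusted p = 0.518). In hypoxia Fcer2a had the largest genotype difference of the set (-2.03 ± 0.42, adjusted p = 0.00448), with no overlap.

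Cd180, a Toll-like receptor relative of B cells, was at 8.56, 8.62, 5.27 and 9.22 CPM in wild type room air, 7.63, 5.64, 5.07 and 5.91 in wild type hypoxia, 7.17, 4.99, 3.29 and 3.28 in knockout room air and 1.78, 2.76, 1.19 and 2.505 in knockout hypoxia. Wild type and knockout overlapped in room air and not in hypoxia. Together with Cd22, it had the smallest p after Serpina9 for knockout against wild type in hypoxia (-1.53 ± 0.28, adjusted p = 0.00146). The other surface receptors were Cd72 and Siglecg (inhibitory coreceptors), Fcrl1, Fcrla and Faim3 (relatives of or receptors for antibody constant regions, Faim3 binding IgM) and the tetraspanin Cd37. Siglecg had the lowest estimate of the set in wild type hypoxia (-1.35 ± 0.31, adjusted p = 0.0147) and Faim3 in knockout hypoxia (-2.21 ± 0.34, adjusted p = 0.000247). Cd72 fell in both genotypes (-0.93 ± 0.22, adjusted p = 0.0176 in wild type and -0.99 ± 0.23, adjusted p = 0.00557 in the knockout), and in hypoxia its genotype difference missed the threshold (-0.65 ± 0.23, adjusted p = 0.0507) although the samples did not overlap. Its exons share 1423 bases with Tesk1 on the other strand. Fcrl1, whose promoter holds the ETS motif shown above, went from 7.54 ± 2.64 to 3.69 ± 1.19 CPM in wild type and from 5.196 ± 1.04 to 1.49 ± 0.616 in the knockout, lower in both.

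**Figure D4:**
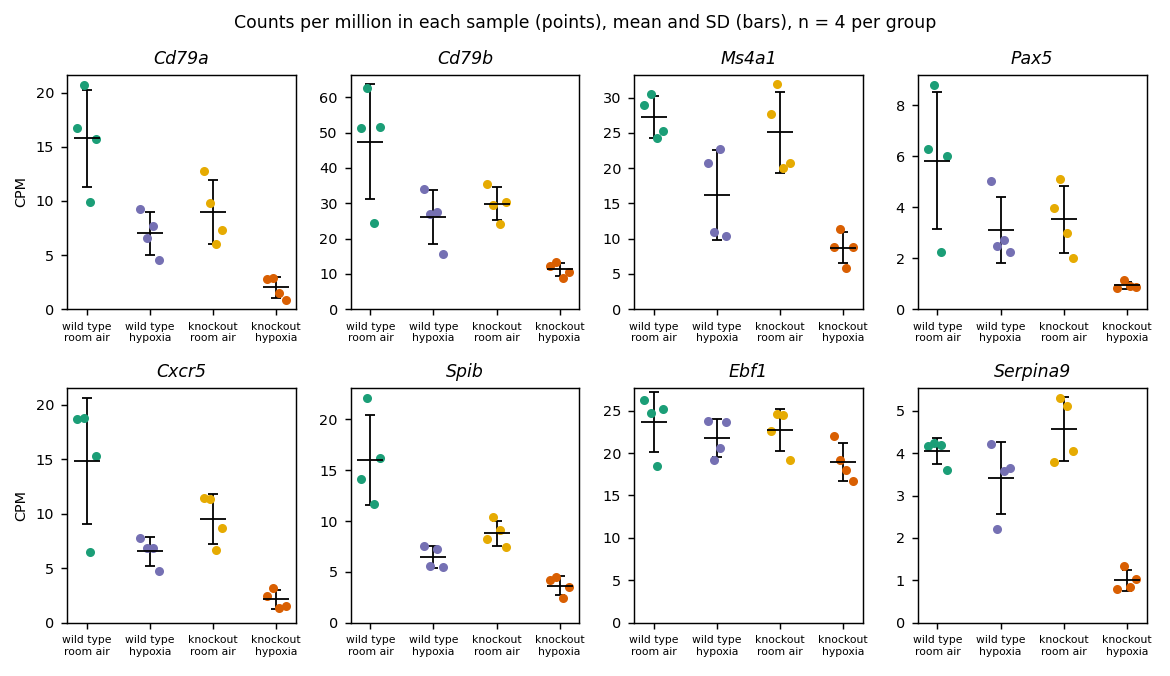
CPM (vertical axis, from 0) of 8 of the genes in each of the 16 samples (points), with the group mean and SD (bars, n = 4), by genotype and oxygen (horizontal axis). The 4 knockout hypoxia samples lie below the rest for Cd79a, Cd79b, Pax5, Cxcr5, Spib and Serpina9, overlap wild type hypoxia for Ms4a1, and overlap every group for Ebf1.

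The 6 transcription factor genes divided into Ebf1 and the other 5. Spib had the smallest p of all members in wild type hypoxia. It was at 14.1, 22.1, 11.7 and 16.2 CPM in wild type room air, 7.52, 5.55, 7.22 and 5.499 in wild type hypoxia, 8.2, 10.4, 9.07 and 7.48 in knockout room air and 4.18, 4.47, 2.37 and 3.47 in knockout hypoxia. Its 4 groups overlapped only between wild type hypoxia and knockout room air. Spib fell in hypoxia in wild type (-1.33 ± 0.20, adjusted p = 0.000305) and in the knockout (-1.26 ± 0.20, adjusted p = 0.000264), with an estimated difference of 0.07 ± 0.28 (adjusted p = 0.948). In knockout against wild type it was at -0.88 ± 0.19 (adjusted p = 0.0601) in room air, which did not pass, and -0.81 ± 0.21 (adjusted p = 0.0102) in hypoxia, which did. SPIB is also known from plasmacytoid dendritic cells. Of 8 genes of those cells, 1 was called lower in wild type hypoxia and 3 in knockout hypoxia, with none higher; without knockout room air 3 and 4, which carried thymocyte genes, 1 was called lower in the knockout. Siglech (-1.13 ± 0.21, adjusted p = 0.00267 in wild type and -1.50 ± 0.22, adjusted p = 9.05e-05 in the knockout) and the chemokine receptor Ccr9 (-2.16 ± 0.45, adjusted p = 0.00291 in the knockout) had the smallest p. Ccr9 was at 2.145, 1.486, 8.875 and 9.004 CPM in knockout room air and 1.843, 1.044, 0.847 and 1.04 in knockout hypoxia. Its high room air values were thus those of samples 3 and 4. The part of plasmacytoid dendritic cells in the Spib result was not tested.

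Pax5, which represses genes of other lineages in B cells, was at 6.27, 8.804, 2.26 and 5.999 CPM in wild type room air, 5.03, 2.48, 2.698 and 2.25 in wild type hypoxia, 3.99, 5.096, 2.99 and 2.02 in knockout room air and 0.823, 1.13, 0.904 and 0.874 in knockout hypoxia. The 4 knockout hypoxia samples lay close together and below all others, and the other groups overlapped. Pax5 fell in the knockout (-1.91 ± 0.37, adjusted p = 0.00136) and was lower there than in wild type hypoxia (-1.72 ± 0.37, adjusted p = 0.00409); wild type hypoxia was not called (-0.96 ± 0.33, adjusted p = 0.119). Pou2af1 fell in both genotypes, from 15.4 ± 5.21 to 8.06 ± 1.83 CPM in wild type and from 12.6 ± 3.12 to 4.07 ± 1.304 in the knockout. Its partner Pou2f2 (2.36 ± 1.01 to 0.795 ± 0.179 CPM) and Bcl11a, a zinc finger repressor needed for lymphoid development (3.16 ± 1.44 to 1.12 ± 0.165 CPM), fell in the knockout and were not called in wild type.

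Ebf1, which acts ahead of Pax5 in B cell development, was not called in any comparison. It was at 26.3, 24.7, 18.5 and 25.2 CPM in wild type room air and 23.8, 19.2, 20.6 and 23.7 in wild type hypoxia. In the knockout it was at 22.6, 24.6, 24.5 and 19.2 in room air and 21.98, 19.2, 17.96 and 16.7 in hypoxia. All 4 groups overlapped, at log2 fold changes of -0.13 ± 0.12 (adjusted p = 0.67) for hypoxia in wild type, -0.26 ± 0.12 (adjusted p = 0.153) in the knockout and -0.20 ± 0.12 (adjusted p = 0.244) between genotypes in hypoxia. The 95% interval of the knockout estimate, -0.50 to -0.02, does not reach the Pax5 estimate of -1.91. EBF1 is also known from fat cells and from stromal cells around vessels. Genes of pericytes, fibroblasts and adipocytes summed to 968 to 1096 CPM in wild type room air, 1122 to 1213 in wild type hypoxia, 990 to 1094 in knockout room air and 872 to 1178 in knockout hypoxia, with none of the 8 at 0; 2 of 8 (Plin1 and Adipoq, of fat cells) were called lower in knockout hypoxia. Their part in the Ebf1 level was not tested.

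The 3 homing, survival and lipid receptors were all called lower in hypoxia in both genotypes. Cxcr5, which draws B cells toward CXCL13, was at 18.7, 18.8, 6.45 and 15.3 CPM in wild type room air and 7.79, 6.82, 6.81 and 4.71 in wild type hypoxia. Its knockout values were 11.4, 11.3, 6.65 and 8.66 in room air and 2.402, 3.22, 1.36 and 1.54 in hypoxia. Wild type room air 3 lay within wild type hypoxia, and knockout hypoxia lay below every other sample. Cxcr5 fell in wild type (-1.21 ± 0.29, adjusted p = 0.0192) and in the knockout (-2.15 ± 0.32, adjusted p = 0.000148), and it was lower in the knockout under hypoxia (-1.61 ± 0.32, adjusted p = 0.00269).

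Cnr2, the cannabinoid receptor CB2 of immune cells, was at 25.7, 29.1, 20.1 and 26.1 CPM in wild type room air and 16.8, 17.5, 18.1 and 18.2 in wild type hypoxia. In the knockout it was at 25.2, 22.5, 18.8 and 20.3 in room air and 13.8, 14.1, 11.9 and 15.8 in hypoxia. The wild type hypoxia samples were close together and below all room air samples of both genotypes. Cnr2 fell at log2 fold changes of -0.52 ± 0.12 (adjusted p = 0.0113) in wild type and -0.64 ± 0.12 (adjusted p = 0.000912) in the knockout, and the genotype difference in hypoxia was -0.34 ± 0.12 (adjusted p = 0.0456). That last call was lost in 15 of 27 alternatives, among them leaving out any single wild type hypoxia sample. Tnfrsf13c, the receptor for the survival factor BAFF, fell in wild type (-1.18 ± 0.30, adjusted p = 0.0236) and in the knockout (-0.98 ± 0.30, adjusted p = 0.0322), and its genotype difference in hypoxia did not pass (-0.51 ± 0.31, adjusted p = 0.249). Without room air sample 1 or 4 or hypoxia sample 3 or 4 of the knockout it was no longer called in the knockout.

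Of the other B lineage genes, Serpina9, a protease inhibitor known from germinal centre B cells, had the smallest p of all members in knockout hypoxia. It was at 4.17, 4.25, 4.19 and 3.59 CPM in wild type room air and 4.22, 2.21, 3.57 and 3.66 in wild type hypoxia. Among knockout samples it was at 3.798, 5.31, 5.11 and 4.04 in room air and 0.7898, 1.34, 0.847 and 1.04 in hypoxia. The 12 samples of the first 3 groups overlapped and the knockout hypoxia samples lay apart below them. Serpina9 fell in the knockout (-2.18 ± 0.23, adjusted p = 3.06e-06); the change in wild type did not pass (-0.25 ± 0.21, adjusted p = 0.632), and under hypoxia knockout lay below wild type (-1.75 ± 0.23, adjusted p = 0.000121). Among tested germinal centre genes, 0 of 6 were called lower in knockout hypoxia and 2 higher (1 without knockout room air 3 and 4): Fas at 0.74 ± 0.16 (adjusted p = 0.0033) and Mybl1 at 0.73 ± 0.20 (adjusted p = 0.0163).

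Vpreb3, which binds newly made immunoglobulin chains, was at 5.495, 7.13, 4.95 and 6.82 CPM in wild type room air, 3.57, 3.34, 4.73 and 5.65 in wild type hypoxia, 5.47, 6.05, 4.65 and 3.89 in knockout room air and 4.15, 4.89, 2.49 and 2.58 in knockout hypoxia. Every pair of groups compared overlapped, and no comparison passed, the closest being hypoxia in the knockout (-0.51 ± 0.23, adjusted p = 0.151) and in wild type (-0.50 ± 0.23, adjusted p = 0.279). Vpreb3 carries the octamer, as Cnr2 and Blnk do. Ly6d, an early surface mark of the B lineage, was at 17.3, 22.3, 9.89 and 16.2 CPM in wild type room air, 10.1, 8.83, 9.67 and 3.803 in wild type hypoxia, 9.9, 12.6, 11.8 and 12.3 in knockout room air and 5.496, 8.39, 4.41 and 4.75 in knockout hypoxia. Ly6d fell in hypoxia in wild type (-1.05 ± 0.27, adjusted p = 0.0318) and in the knockout (-1.02 ± 0.28, adjusted p = 0.0168), estimates that differed by 0.04 ± 0.39. The knockout call was lost without knockout hypoxia 3 or 4.

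Ralgps2, an exchange factor for RAL GTPases, was at 48.2, 46.8, 35.4 and 42.4 CPM in wild type room air, 41.7, 31.3, 33.5 and 34.7 in wild type hypoxia, 45.2, 43.9, 37.4 and 40.02 in knockout room air and 33.2, 34.9, 31.8 and 27.6 in knockout hypoxia. It had the smallest change of the called members in knockout hypoxia (-0.39 ± 0.11, adjusted p = 0.0189), a call lost without knockout room air 1 or 2 or knockout hypoxia 4. H2-Ob, a chain of the class II chaperone that tempers peptide loading in B cells, went from 37.5 ± 8.501 to 25.6 ± 5.52 CPM in wild type, not called (-0.56 ± 0.21, adjusted p = 0.162), and fell from 28.7 ± 7.04 to 12.8 ± 3.06 in the knockout (-1.16 ± 0.22, adjusted p = 0.00135).

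Of 26 further B cell receptor signalling genes, many of them shared with other blood cells, 3 were called lower and 0 higher in wild type hypoxia, 11 lower and 4 higher in knockout hypoxia, and 15 lower and 1 higher in knockout against wild type hypoxia, with medians of -0.16, -0.22 and -0.40. Without knockout room air 3 and 4 the knockout hypoxia counts were 9 lower and 0 higher. Prkcb, the protein kinase C of the receptor pathway, fell in both genotypes (-0.69 ± 0.13, adjusted p = 0.00285 in wild type and -1.65 ± 0.14, adjusted p = 2.03e-07 in the knockout), and the difference between these effects was itself called (-0.96 ± 0.19, adjusted p = 0.0243). Ptpn22, a phosphatase of B and T cells, fell in both as well (-0.92 ± 0.18, adjusted p = 0.00412 and -1.43 ± 0.19, adjusted p = 3e-05). In room air 0 of 26 were called, Vav1 (-0.40 ± 0.10, adjusted p = 0.0643) and Plcg2 (-0.54 ± 0.14, adjusted p = 0.066) having the smallest p. Of 26 further genes of mature B cells, 4 were lower and 1 higher in wild type hypoxia, 13 lower and 2 higher in knockout hypoxia (11 and 0 without the same samples), 0 called in room air, and 13 lower and 0 higher in knockout against wild type hypoxia. Ikzf3, the Ikaros relative Aiolos, fell from 27.4 ± 6.06 to 14.8 ± 1.26 CPM in wild type and from 16.4 ± 2.53 to 5.58 ± 1.32 in the knockout, and Lrmp, a membrane protein of the endoplasmic reticulum in lymphocytes, had the next smallest p there (-1.24 ± 0.16, adjusted p = 2.71e-05).

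Later and earlier stages of the lineage gave mixed counts. Of 11 tested plasma cell genes, 2 were called lower and 3 higher in knockout hypoxia. Mzb1, a chaperone of marginal zone B cells and plasma cells, fell (-1.74 ± 0.25, adjusted p = 0.000104), while Creld2, a chaperone of the endoplasmic reticulum in many cell types, rose (1.04 ± 0.10, adjusted p = 6.86e-07). The joining chain gene Igj was at 12.2, 10.5, 11.2 and 19.9 CPM in knockout room air and 9.77, 18.1, 7.74 and 9.36 in knockout hypoxia, with overlap. In wild type, Igj was at 3.751, 8.99, 8.386 and 7.668 CPM in room air and 11.09, 8.063, 13.45 and 5.207 in hypoxia. Every wild type room air sample thus lay below every knockout room air sample for Igj. For Sdc1 every wild type room air sample lay above every knockout one (243.6 to 285.7 against 224.2 to 242.5 CPM). Of 11 plasma cell genes these were the 1 higher and 1 lower without overlap, against 4.31% and 6.06% of all genes. Of the 11, 0 were called in room air. Of 6 tested B cell precursor genes, 3 were called lower in knockout hypoxia (2 without knockout room air 3 and 4), with Lef1 (-0.89 ± 0.17, adjusted p = 0.00127) and Il7r (adjusted p = 0.00563) first, both also expressed by T cells. The tested precursor genes include Rag1 and Dntt, which are also in the thymocyte list and were high in knockout room air 3 and 4. The count is therefore not specific to the B lineage. The ligands for the homing and survival receptors were called for 0 of 10 tested in wild type hypoxia and for 3, all lower, in knockout hypoxia. Cxcl13, the ligand of CXCR5, was at 1.61, 1.64, 1.505 and 2.89 CPM in wild type room air and 2.596, 2.038, 3.529 and 0.819 in wild type hypoxia. In the knockout it was at 2.733, 1.858, 2.028 and 2.251 in room air and 1.74, 2.63, 3.28 and 1.54 in hypoxia. Tnfsf13b, which encodes BAFF, was at 15.9, 13.4, 14.7 and 16.6 in wild type room air and 14.71, 16.1, 14.74 and 12.17 in wild type hypoxia. Its knockout values were 15.68, 14.07, 12.38 and 16.02 in room air and 14.3, 12.6, 14.8 and 12.1 in hypoxia. All 4 groups overlapped for both genes. The ligands with the smallest p in the knockout were Ltb (-1.28 ± 0.20, adjusted p = 0.000221), which B and T cells themselves express, and Il4, at 0.493, 0.478, 0.442 and 0.496 CPM in room air and 0, 0, 0.0565 and 0 in hypoxia.

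T cell, natural killer cell and pan-leukocyte genes were also called lower in hypoxia. T cell genes were called lower for 3 of 20 in wild type hypoxia and 16 of 20 in knockout hypoxia (median -1.52), 0 of 20 between genotypes in room air (median -0.04) and 11 of 20 between genotypes in hypoxia. Knockout room air 3 and 4 had high T cell sums (197 and 212 CPM against 128 and 135 in 1 and 2); without them 10 of 20 were called lower in knockout hypoxia (median -1.19) and 0 of 20 between genotypes in room air (median -0.48). Those with the smallest p in knockout hypoxia were Cd247, a chain of the T cell receptor complex (-1.86 ± 0.24, adjusted p = 3.37e-05), and Themis, a T cell signalling protein (-2.10 ± 0.28, adjusted p = 4.54e-05; without those samples -1.43 ± 0.26, adjusted p = 0.00223). Natural killer cell genes were called lower for 7 of 9 in wild type hypoxia and 9 of 9 in knockout hypoxia, and 3 of 9 between genotypes in hypoxia, led in knockout hypoxia by Klrd1 (-1.70 ± 0.21, adjusted p = 2.12e-05) and the granule protease Gzma (-1.55 ± 0.19, adjusted p = 2.47e-05). Pan-leukocyte genes were called lower for 2 of 8, 7 of 8 and 6 of 8 in the same 3 comparisons, and Ptprc, which encodes CD45, fell in both genotypes (-0.33 ± 0.07, adjusted p = 0.00988 in wild type and -0.88 ± 0.07, adjusted p = 2.5e-07 in the knockout). Macrophage and monocyte genes were called for 0 of 10 in wild type hypoxia, and in knockout hypoxia for 3 lower and 1 higher, with Itgam (-1.22 ± 0.17, adjusted p = 6.83e-05) and the mannose receptor Mrc1 (0.42 ± 0.10, adjusted p = 0.00532) first. The summed T cell level was 135 to 202 CPM in wild type room air, 119 to 127 in wild type hypoxia, 128 to 212 in knockout room air and 64.8 to 92 in knockout hypoxia. The summed pan-leukocyte level was 906 to 986, 709 to 806, 847 to 1022 and 541 to 560 CPM in the same order. The part of these other cell types in the result for shared genes such as Btla, Cd37 and Btk was not tested.

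The B cell genes did not follow the T cell genes in every sample. Knockout room air 3 and 4 had T cell sums among the 3 highest of the 16 samples and the lowest B cell sums of their group (333 and 390). In those samples the thymocyte genes Rag1 (46.2 and 35.3 CPM) and Dntt (12.7 and 11.6) were high against at most 2.99 and 0.594 elsewhere. Of 8 genes of lymph node stroma and high endothelium, 5 had enough reads to be tested, and in knockout hypoxia 0 were called lower and 1 higher (Il33, 0.88 ± 0.17, adjusted p = 0.0018). Which cells carried the Il33 reads (93.7 to 344 CPM over the 16 samples) was not tested. Among the 3 genes of this list with too few reads, Ccl21a was at 0 in all samples, and Glycam1 and Madcam1 were at most 0.0531 CPM. Reads that aligned to several places were assigned to no gene (2.34 to 12.4 such alignments per read in genes). A count of 0 or near 0 therefore does not show that a gene was unexpressed. Chst4, also of high endothelium, was at 6.31 and 9.004 CPM in knockout room air 3 and 4, within the 4.59 to 12.1 of the 16 samples. Wild type room air 3, which was low for B cell genes, was also lowest of its group for T cell genes (135 CPM against 156 to 202) and thymocyte genes (44.7 against 58.4 to 63.2), and held pan-leukocyte genes at 913 CPM, within its group's 906 to 986.

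**Figure D5:**
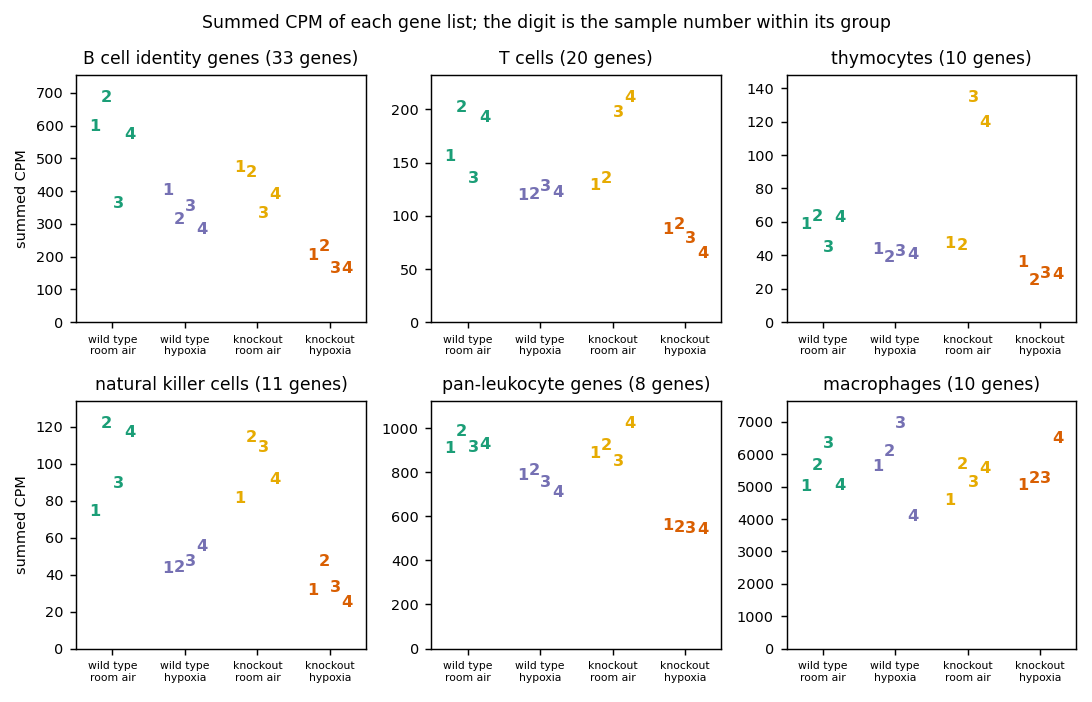
Summed CPM (vertical axes, from 0) of the B cell identity genes and of 5 other gene lists in each sample, drawn as the sample's number within its group (horizontal axis, 4 groups). Knockout hypoxia is lowest for B cell, T cell and pan-leukocyte genes. Knockout room air 3 and 4 stand above all others for thymocyte genes and below 1 and 2 for B cell genes. The macrophage sum, most of it from Lyz2, overlaps in all groups. Of its 10 genes, 3 were called lower and 1 higher in knockout hypoxia.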

How the data were processed

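Ribosome-depleted total RNA from whole lung was sequenced in 20 libraries with a directional kit, per the labels' protocols. Per the submitters' processing notes, the authors trimmed reads with Trim Galore, aligned them to mm10 with TopHat2 and counted them per gene with HTSeq. No source used here gives their versions, the annotation or the strand setting. What the authors deposited are unnormalized counts of reads for each gene symbol, with 5 lines that name no gene left out here.

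In 4 cases 2 libraries have the same number and the letters A and B. These differed less from each other (chi-square per degree of freedom 1.54 to 2.06) than from any other number (3.82 or more) and were summed, giving 16 samples. That a number stands for one animal is not stated, so the p-values reflect only how these samples vary, which may be technical. Numbers shared across groups were not taken as pairs.

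The counts were fitted with edgeR 4.0.16 in R 4.3.3 (TMM, filterByExpr with a minimum count of 10 and total of 15, robust quasi-likelihood fit of all 4 groups without covariates), on 15766 genes with 8296 removed. Genes were called at a Benjamini-Hochberg adjusted p under 0.05, two-sided. The biological coefficient of variation was 15.8%. The script was tested on simulated data. CPM use TMM-scaled library sizes. Alternatives used limma 3.58.1, DESeq2 1.42.0, other scalings and filters, and left-out samples. Gene coordinates are from GENCODE vM21 (GRCm38); 32 symbols matched directly and Faim3 by its current name Fcmr. The members and all gene lists were chosen with earlier results of these data known. Values are given for every sample for a fixed list of members. In each comparison they are also given for the 3 with the smallest and the 2 with the largest p. Of most other lists, 1 or 2 genes with the smallest p in a comparison are named. Further genes were chosen after their values were seen (Igj, Cxcl13, Tnfsf13b, Rag1, Dntt, Glycam1, Madcam1, Ccl21a, Chst4, Rn45s, Lyz2).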

Additional observations from a re-analysis of the deposited data

Results flagged for a closer look

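Within groups of 4, 132 sets of values (33 genes in 4 groups) were checked for a sample far from the other 3, and 5 were found, where chance alone marks about 1 in 20. In wild type room air 3, Fcer2a was at 5.27 CPM against 14.3 to 15.9 in the rest of the group, and Cd180 was also at 5.27 against 8.56 to 9.23; this is the sample with the lowest share of reads in genes. In wild type hypoxia 1, Pax5 was at 5.03 CPM against 2.25 to 2.70. In wild type hypoxia 4, Fcrla was at 3.04 CPM against 5.61 to 6.06. In wild type room air 4, Serpina9 was at 3.59 CPM against 4.17 to 4.25.

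The effect of hypoxia on Serpina9 differed between genotypes when the difference itself was tested (-1.92 on the log2 scale, edgeR adjusted p = 0.00802), with all 4 knockout hypoxia samples below the other 12. Without the 5 samples that carried genes of other organs it was -1.99, with an adjusted p of 0.0852.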

How the results depend on the processing

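The direction of no member count reversed in any alternative. For hypoxia in the knockout (31 members called lower) the alternatives gave 28 to 31, and for knockout against wild type in hypoxia (27) they gave 22 to 28. Over all genes, calls lower ranged from 637 to 1812 and from 1120 to 2228 in these comparisons. For hypoxia in wild type (15) they gave 23 with limma voom, 8 with the compared groups only, 8 after dropping the 5 samples that carry genes of other organs, and 25 after dropping wild type room air 3 with knockout room air 3 and 4, an alternative chosen after seeing the data, as were the counts of other gene lists without knockout room air 3 and 4; leaving out 1 sample at a time gave 4 to 23. For knockout against wild type in room air (0) they gave 1 with RLE scaling, 2 with upper quartile scaling, 7 with DESeq2, 11 with limma voom, 2 with the A library alone and 3 without wild type room air 3 and knockout room air 3 and 4; leaving out 1 sample gave 0 to 14 (3 without wild type hypoxia 2, 2 without wild type hypoxia 4). Over all genes, calls lower in room air between genotypes (3) became 9 with RLE scaling and 25 with upper quartile scaling. DESeq2 gave 547, limma voom 367 and the A library alone 65. Leaving out wild type room air 3 with knockout room air 3 and 4 gave 91. Without wild type hypoxia 2 there were 82, and 42 without wild type hypoxia 4. The 1 member called for the difference between the effects became 0 without the 5 samples. For hypoxia in wild type, calls lower over all genes (364) became 388 with limma voom and 180 with the compared groups only. They became 226 without the 5 samples and 420 without wild type room air 3 and knockout room air 3 and 4. The causes of these moves were not tested.

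With the replicate number as a block, 17, 31, 3, 27 and 1 members were called lower for hypoxia in wild type, hypoxia in the knockout, knockout against wild type in room air, the same in hypoxia, and the difference between the effects. Over all genes, 388, 1424, 60, 1929 and 71 were called lower in the same order. Samples with the same number in different groups did not all deviate together (correlation above 0.1 in 12 of 24 pairs, range -0.327 to 0.46; over the members, sample 1 lay above its group's mean in all 4 groups, by a median log2 of 0.09 to 0.29), and 4 of 16 samples were closest to their own number, so the numbers are not taken as pairs. Depth limits the lowest members most: a count of 0 in wild type room air 3 would allow 0.315 CPM, beside Tnfrsf13c at 2.04 CPM (19 reads) there. In knockout hypoxia 3 a count of 0 would allow 0.169 CPM, beside Fcrl1 and Pou2f2 at 0.678 CPM (12 reads each).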
